A study of Drosophila melanogaster with 266 samples.

Results

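The R8 photoreceptors of the fly eye were compared in their Rh5-expressing and Rh6-expressing subtypes, from 4 of the 266 RNA libraries of a survey of cell types in the visual system of Drosophila melanogaster. The members were chosen by the labels: 2 libraries of the driver R8_Rh5_d1 and 2 of the driver R8_Rh6_d1, all made with TAPIN, a nuclear capture in 2 steps from frozen tissue. The question was which genes differ between these subtypes of the same photoreceptor. Adult flies of 4 to 7 days and of unsorted sex were kept under a light:dark cycle and frozen late in the light phase, and nuclei were captured from pooled heads through the reporter 10XUAS_UNC84_attP2, which puts a GFP-tagged UNC84 protein in the nuclear envelope of cells with GAL4. The R8_Rh5 stock (BL-7458, y w) carries an Rh5-GAL4 insertion on chromosome 2 with TM2 and TM6B balancers, and the R8_Rh6 stock (BL-7464, w) carries Rh6-GAL4.D on chromosome 3 with the balancers CyO and TM2 and the marker wg Sp-1. Which of these chromosomes the profiled flies inherited is not given in the sources used here, so the R8 subtype, the GAL4 insertion and the genetic background cannot be told apart. Each driver is listed as also labelling a few extraretinal photoreceptors of the eyelet. For orientation, 2 libraries of R7_d1 (BL-8604, Pan-R7-GAL4, which also labels dorsal rim R8 cells, ocelli and eyelet) and 2 TAPIN libraries of the outer photoreceptors, R1-6_d1, entered the same fit, all with the same reporter.

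In each ommatidium of the compound eye, R7 lies above R8, and both send axons to the medulla to serve colour vision. Ommatidia are of a pale or a yellow kind: in pale ones R7 makes the ultraviolet-sensitive Rh3 and R8 the blue-sensitive Rh5, and in yellow ones R7 makes Rh4 and R8 the green-sensitive Rh6. A pale R7 is known to signal to its R8 through activin and BMP ligands. The choice is then held in R8 by the growth regulator gene melted (melt), active in Rh5 cells, and the Hippo pathway kinase gene warts (wts), active in Rh6 cells, each of which represses the other.

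Levels are given in TPM, the share of a transcript among all coding transcripts after correction for its length. No read counts were used: sequencing depth is therefore unknown, and only the spread between 2 libraries measures precision. The R8 libraries detected 9627 to 10047 coding genes above 0 TPM. The tag transcript stood at 7036 and 7668 TPM in R8_Rh5 and at 15053 and 11468 TPM in R8_Rh6, in the table that includes it. Across all coding genes, the Pearson correlation of log TPM was 0.942 between the R8_Rh5 libraries, 0.953 between the R8_Rh6 libraries and 0.928 to 0.930 between subtypes, and the genes are not independent points. The study describes the libraries of a driver as biological replicates, and the labels give no separate culture or cross for them, so the p-values measure the spread between these samples. With 2 libraries against 2, an exact permutation test cannot fall below 0.333, and p-values come from a limma fit to all genes, with Benjamini-Hochberg adjustment over the 6003 coding genes that reached 10 TPM in 2 or more R8 libraries. Differences are given on the log2 scale of TPM plus 1, which understates the change of genes at low TPM.

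The labels were first checked on the genes that define the cells. Rh5 (FBgn0014019, arm 2L, 12008153 to 12009832) was at 11181 and 9368 TPM in the R8_Rh5 libraries and at 338 and 303 TPM in the R8_Rh6 libraries. Its mean was 10275 ± 1282 TPM (SD, n = 2) against 321 ± 24.6 TPM (SD, n = 2), a log2 difference of 4.99 (SE 0.16, adjusted p = 2.2e-06). Rh6 (FBgn0019940, arm 3R, 15483158 to 15484699) stood at 171 and 215 TPM in R8_Rh5 and at 22659.8 and 17286 TPM in R8_Rh6. The libraries did not overlap for either opsin, and the difference for Rh6 was -6.68 (SE 0.25, adjusted p = 2.7e-06). These values check the labels and the drivers, which were built from the same 2 opsin genes. The opsin of the other subtype was present in each pair above its level in the median of 92 drivers for other cell types, which was 4.21 TPM for Rh5 and 5.27 TPM for Rh6. R7 held 357 and 291 TPM of Rh5, near the R8_Rh6 level, and R1-6 held 6.60 and 5.92 TPM. In 6 TAPIN control captures, without a driver or with a mock antibody, Rh5 ranged from 0 to 184 TPM with a median of 0.405, and Rh6 from 0 to 418 TPM with a median of 80.0.

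Senseless (sens, FBgn0002573, arm 3L, 13396228 to 13401125), the zinc finger factor that specifies R8, was at 127 and 128 TPM in R8_Rh5 and at 139 and 160.2 TPM in R8_Rh6. Its libraries in R7 were at 5.63 and 16.8 TPM and in R1-6 at 0.51 and 0.13 TPM. The 2 R8 subtypes differed by -0.23 (SE 0.51, adjusted p = 0.915), while R8 was above R7 by 3.67 (SE 0.44, adjusted p = 0.0012). Histidine decarboxylase (Hdc), which makes the photoreceptor transmitter histamine, ran from 554 to 630.4 TPM over the 4 R8 libraries, a range that overlapped between the subtypes (0.07, SE 0.11, adjusted p = 0.861).

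**Figure D1:**
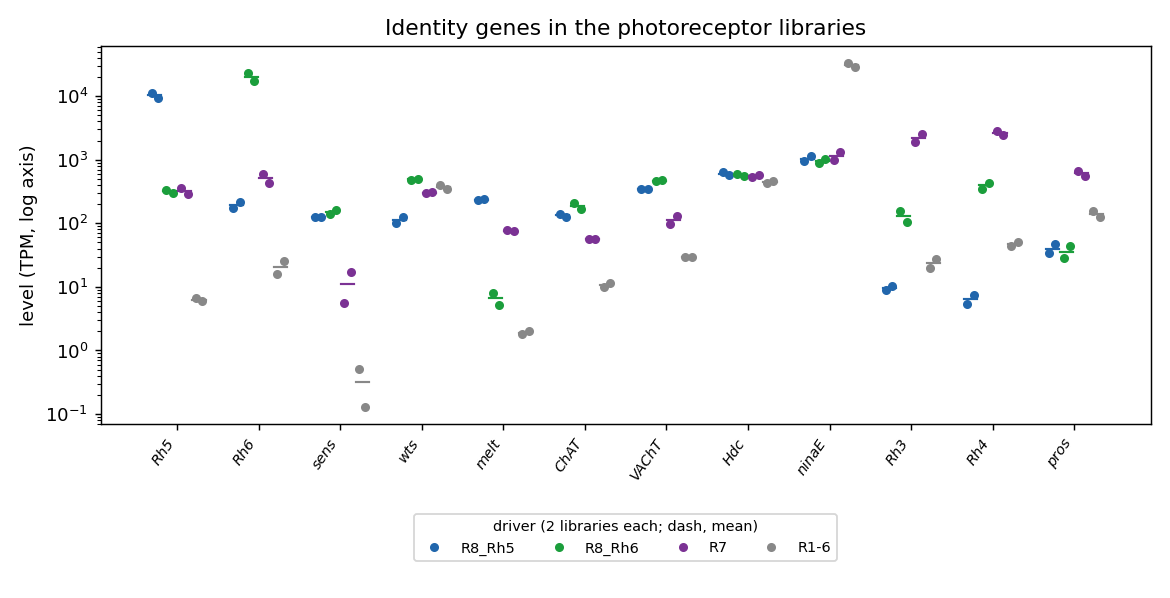
TPM on a log axis of opsin, R8, R7 and transmitter genes in the 8 photoreceptor libraries, 1 point per library, by driver. Rh5 lay at 9368 TPM or more in R8_Rh5 and at 338 TPM or less in R8_Rh6, Rh6 did the reverse, and sens was between 127 and 160.2 TPM in all 4 R8 libraries.

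Markers of other cells were read in the same libraries. The R7 opsins stood out on the R8_Rh6 side. Rh4 was at 5.38 and 7.37 TPM in R8_Rh5 and at 351 and 438 TPM in R8_Rh6, a difference of -5.75 (SE 0.20, adjusted p = 2.7e-06). Rh3 was at 8.84 and 10.5 TPM in R8_Rh5 and at 153 and 106 TPM in R8_Rh6, a difference of -3.59 (SE 0.27, adjusted p = 0.00016). R7 itself held 2872 and 2429 TPM of Rh4 and 1869.8 and 2562 TPM of Rh3, so both opsins were lower in R8_Rh6 than in R7 in every library. Prospero (pros), the homeodomain factor of R7, did not follow them: it was at 33.6 and 46.6 TPM in R8_Rh5 and at 28.2 and 43.6 TPM in R8_Rh6, against 657 and 563 TPM in R7. In the 6 control captures, Rh3 ranged from 0 to 3886 TPM (median 94.4) and Rh4 from 0 to 2213 TPM (median 14.5). Both ranges include the R8_Rh5 and R8_Rh6 levels. The captures held 753 to 2709 TPM of pros, above every R8 library. Summed over these 3 R7 markers, of which 2 of 3 differed, the level was 47.8 to 64.5 TPM in R8_Rh5, 533 to 587 TPM in R8_Rh6 and 5399 to 5553 TPM in R7. The part of R7 nuclei or of capture background in the differences on the R8_Rh6 side was not tested, and R7 values stand beside the genes below. The gene sina lies inside Rh4, on the opposite strand, and was at 48.9 and 78.6 TPM in R8_Rh5, at 438 and 499 TPM in R8_Rh6 and at 3651 and 3615 TPM in R7, so reads of the pair cannot be separated without strand.

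For other cells, 0 of the markers tested passed the threshold. The ocellar opsin Rh2 did not pass (-1.66). It was at 6.18 to 8.42 TPM in R8_Rh5, 16.7 to 37.3 TPM in R8_Rh6 and 399 to 459 TPM in R7. Control captures held 0 to 487 TPM of Rh2. The outer photoreceptor opsin ninaE was between 898 and 1149 TPM in the R8 libraries and at 1006 and 1316 TPM in R7, against 32982 and 28182 TPM in R1-6 and 22394 to 36505 TPM in the control captures. Glial markers summed to 98.2 to 123 TPM in R8_Rh5 and to 84.6 to 131 TPM in R8_Rh6, with 4 of 8 tested, and wrapper was at 0 in 3 of the 4 libraries. Pigment and cone cell markers summed to 99.6 to 134 and to 103 to 105 TPM, with 2 of 7 tested. Brain neuron markers summed to 44.2 to 57.6 TPM in R8_Rh5 and to 64.2 to 87.8 TPM in R8_Rh6, most of it from ey, the only 1 of 8 tested, with bsh at 0 in 3 of the 4 libraries. Muscle and fat body markers, 7 of 12 tested, summed to 2812 to 2942 TPM in R8_Rh5 and to 2219 to 2482 TPM in R8_Rh6, nearly all of it from the yolk protein genes Yp1, Yp2 and Yp3. The sums of the last 2 lists and the Rh2 level did not overlap between the subtypes, and their part in the differences below was not tested.

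The switch genes of the subtypes were both called. melt (FBgn0023001, arm 3L, 7134516 to 7143074), which encodes a membrane-associated protein with a pleckstrin homology domain, was at 229.6 and 239 TPM in R8_Rh5 and at 8.07 and 5.28 TPM in R8_Rh6. R7 was between them with 79.2 and 74.8 TPM, and R1-6 was low with 1.82 and 2.01 TPM. The difference was 4.96 (SE 0.36, adjusted p = 0.00012), with 234 ± 6.47 against 6.67 ± 1.97 TPM (SD, n = 2), and R8_Rh5 had the highest melt level of the 96 drivers ranked. wts (FBgn0011739, arm 3R, 30789625 to 30806619) was at 99.4 and 126 TPM in R8_Rh5 and at 478 and 499.9 TPM in R8_Rh6. The libraries did not overlap, and the difference was -2.12 (SE 0.15, adjusted p = 0.00012), smaller than that of melt. R7 had 294 and 309.6 TPM and R1-6 401 and 343 TPM of wts, and the median of other drivers was 117 TPM, so R8_Rh5 sat near that median at rank 56 of 96 while R8_Rh6 ranked 1. Both calls held with any 1 of the 4 libraries left out. Control captures reached 15.7 TPM for melt (median 0.300) and 199 TPM for wts (median 1.08).

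Over all 6003 genes tested, 4.05% differed between the subtypes, 2.02% higher in R8_Rh5 and 2.03% higher in R8_Rh6, and the counts of each gene list are to be read against these shares. Of the 25 genes listed for the switch and its Hippo pathway, 16 were tested, and melt and wts were the 2 that passed. The upstream kinase gene hpo was at 13.8 and 11.9 TPM in R8_Rh5 and at 22.8 and 20.8 TPM in R8_Rh6, and its difference of -0.72 did not pass (SE 0.44, adjusted p = 0.553). The coactivator yki (-0.32, adjusted p = 0.834) and its partner sd (-0.02, adjusted p = 0.975) did not pass either. The median log2 difference over the 16 genes was -0.08, as it was over all genes tested. Of 14 activin and BMP pathway genes tested, 1 passed, against 4.05% of all genes. This was schnurri (shn), a large zinc finger protein that acts with Smad factors as a repressor, at 411 and 444 TPM in R8_Rh5 against 183 and 156 TPM in R8_Rh6. Its difference was 1.33 (SE 0.14, adjusted p = 0.00095). R7 (224 and 216 TPM) and R1-6 (192 and 196 TPM) were near the R8_Rh6 level. The type I receptor babo (0.21, adjusted p = 0.552), the type II receptor put (0.03, adjusted p = 0.977) and the BMP receptor tkv (-0.29, adjusted p = 0.744) did not pass. With 2 libraries a group, genes that missed the threshold are not shown to be equal.

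Over all genes, 243 of 6003 differed between the subtypes, the 4.05% given above. Of these, 121 were higher in R8_Rh5 and 122 higher in R8_Rh6. The libraries of the subtypes did not overlap for any of the 243, against 44.3% of all genes tested. Those higher in R8_Rh5 had a median difference of 2.85 on the log2 scale and those higher in R8_Rh6 one of -2.15, and 74 and 64 of them were past 2. At an unadjusted p under 0.05 there were 821 genes. The counts rested on having both libraries of a group: without R8_Rh5 replicate 1 they were 56 and 60, without R8_Rh5 replicate 2 they were 57 and 76, without R8_Rh6 replicate 1 they were 68 and 55, and without R8_Rh6 replicate 2 they were 77 and 53. Of the 243 genes, 111 to 120 were called again in those fits, and 0 changed sign.

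**Figure D2:**
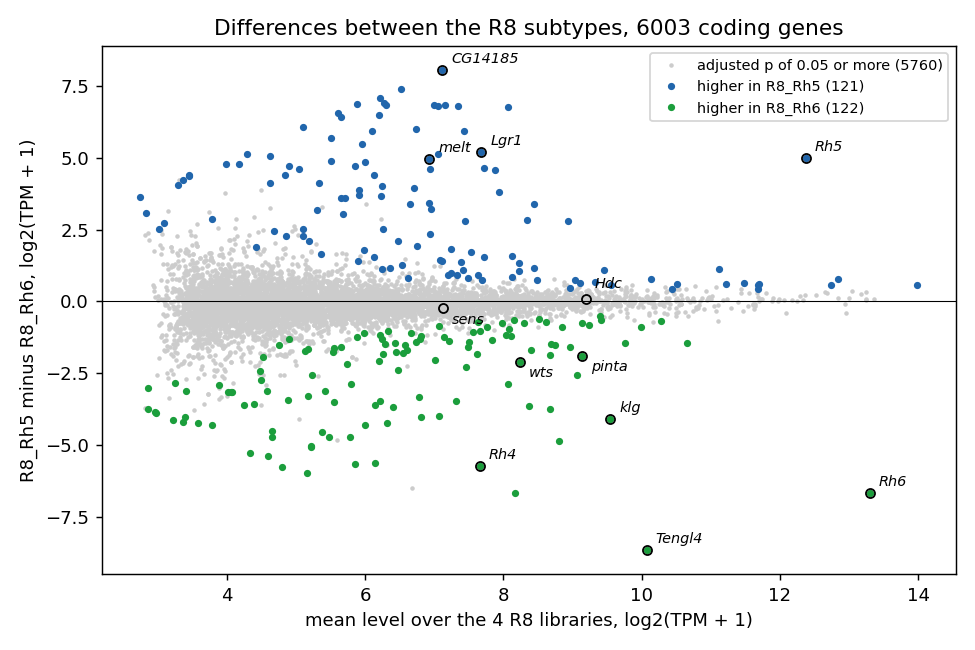
Log2 difference, R8_Rh5 minus R8_Rh6, against the mean level of log2(TPM + 1) of the 4 R8 libraries, 1 point per gene for 6003 coding genes, with the 243 called genes in colour. The 121 genes above the line at 0 and the 122 genes below it were called over the whole range of levels, and Rh5, Rh6 and Tengl4 lie at the outer edge.

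On the R8_Rh5 side, the largest difference was that of CG14185, a gene known by its number only, at 199 and 352 TPM in R8_Rh5 and listed at 0 in both R8_Rh6 libraries (8.06, SE 0.77, adjusted p = 0.00074). It was at 1.12 and 0 TPM in R7 and at 1.21 and 0 TPM in R1-6, and R8_Rh5 was the highest of the 96 drivers. A similar contrast was seen for CG15227 (116 and 245 TPM), CG31788 (90.98 and 201 TPM), CG7514 (132 and 99.7 TPM), CG9993 (75.8 and 116 TPM) and Drsl2 (66.4 and 67.3 TPM), all listed at 0 in both R8_Rh6 libraries. Inscuteable (insc, arm 2R, 20821262 to 20836028), an adaptor known for orienting the division of neural stem cells, was at 125 and 179 TPM in R8_Rh5 and at 0.20 and 0.28 TPM in R8_Rh6. It was at or under 2.84 TPM in R7 and R1-6, and the difference was 6.92 (SE 0.69, adjusted p = 0.00084). Spc25, a kinetochore protein of dividing cells, was at 156 and 153 TPM against 0.82 and 0 TPM (6.85, SE 0.75, adjusted p = 0.0013). pgant4, a sugar transferase that starts O-linked glycosylation in the secretory pathway, was at 238 and 288 TPM against 2.47 and 0.60 TPM (6.80, SE 0.77, adjusted p = 0.0015). These genes were at a few TPM or less in R7 and R1-6 as well.

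The other genes among the 15 with the largest differences were CG42697, CG17999, CG5323, CG31776, CG18418 and Drsl6, with differences of 6.42 to 6.82. The 2 R8_Rh5 libraries were not equal in all of them: CG5323 was at 155 and 488 TPM, CG17999 at 174 and 385 TPM and CG42697 at 166 and 339 TPM, in each case higher in replicate 2. Drsl2 and Drsl6 encode relatives of the antifungal peptide drosomycin. Drsl6 was at 495 and 546 TPM in R8_Rh5 and at 21.4 and 0 TPM in R8_Rh6 (6.78, SE 1.21, adjusted p = 0.016), and its adjusted p reached 0.108 with an R8_Rh5 library left out. CG31776 missed the threshold without R8_Rh5 replicate 2 (adjusted p = 0.052). Of 20 stress and immune genes listed, 4 were tested and 0 differed, and the called Drsl genes were not in that list. Drosomycin itself (Drs) was at 27.7 and 26.0 TPM in R8_Rh5 and at 40.7 and 37.6 TPM in R8_Rh6.

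On the R8_Rh6 side, Tengl4 (FBgn0037857, arm 3R, 10950284 to 10951797), a relative of the mitochondrial nuclease EndoG named for the testis, had a larger difference than Rh6. It was at 6.61 and 2.59 TPM in R8_Rh5 and at 2456 and 1832 TPM in R8_Rh6, with 24.4 and 11.2 TPM in R7 and a maximum of 6.11 TPM among the drivers for other cells. The difference was -8.67 (SE 0.54, adjusted p = 7.3e-05). Tsp66E, a tetraspanin membrane protein, was at 4.02 and 4.86 TPM in R8_Rh5, the lowest of the 96 drivers, and at 434 and 699 TPM in R8_Rh6, the second highest. Its difference was -6.67 (SE 0.47, adjusted p = 0.00012), and the median of drivers for other cells was 166 TPM. Leash (arm 3R, 10885540 to 10896418), an arrestin-domain protein known to lower the Hippo effector Yorkie, was at 29.6 and 27.3 TPM in R8_Rh5 and at 721 and 1001 TPM in R8_Rh6. R7 (24.1 and 22.4 TPM) and R1-6 (14.4 and 18.3 TPM) were at the R8_Rh5 level, and the difference was -4.85 (SE 0.26, adjusted p = 3.0e-05). Adk3 and CG6621 lie inside Leash, so reads of these genes are not fully separable.

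Task7, a potassium leak channel, was at 2.12 and 0.61 TPM in R8_Rh5 and at 104 and 120.0 TPM in R8_Rh6 (-5.65, SE 0.60, adjusted p = 0.0011). It was modelled as on in 83 other drivers, while R8_Rh5 (rank 93 of 96), R7 (2.03 and 1.03 TPM) and R1-6 (7.16 and 7.20 TPM) were below the median of 39.1 TPM of drivers for other cells, so R8_Rh6 was the highest of the 4 photoreceptor groups. The receptor gene mthl8, of the methuselah family, was at 0.24 and 0 TPM in R8_Rh5 and at 74.9 and 63.7 TPM in R8_Rh6 (-5.98, SE 0.43, adjusted p = 0.00012). It was also present in R7 (38.6 and 28.7 TPM) and R1-6 (39.7 and 31.9 TPM), so R8_Rh5 was the lowest of the 4 photoreceptor groups. Skeletor (36.2 and 106 TPM in R8_Rh6 against 1.31 and 0.50 TPM in R8_Rh5) was higher still in R7 (118 and 283 TPM). CG33467 was listed at 0 in R8_Rh5, R7 and R1-6 and was at 46.6 and 60.4 TPM in R8_Rh6. The other genes among the 15 were CG15615, CG32376, CG32374, Tpl94D, the integrin subunit gene Itgbn and CG12994, with differences of -5.62 to -4.73. Itgbn missed the threshold without R8_Rh6 replicate 1 (adjusted p = 0.051), and CG12994 without either R8_Rh6 library (up to 0.060).

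**Figure D3:**
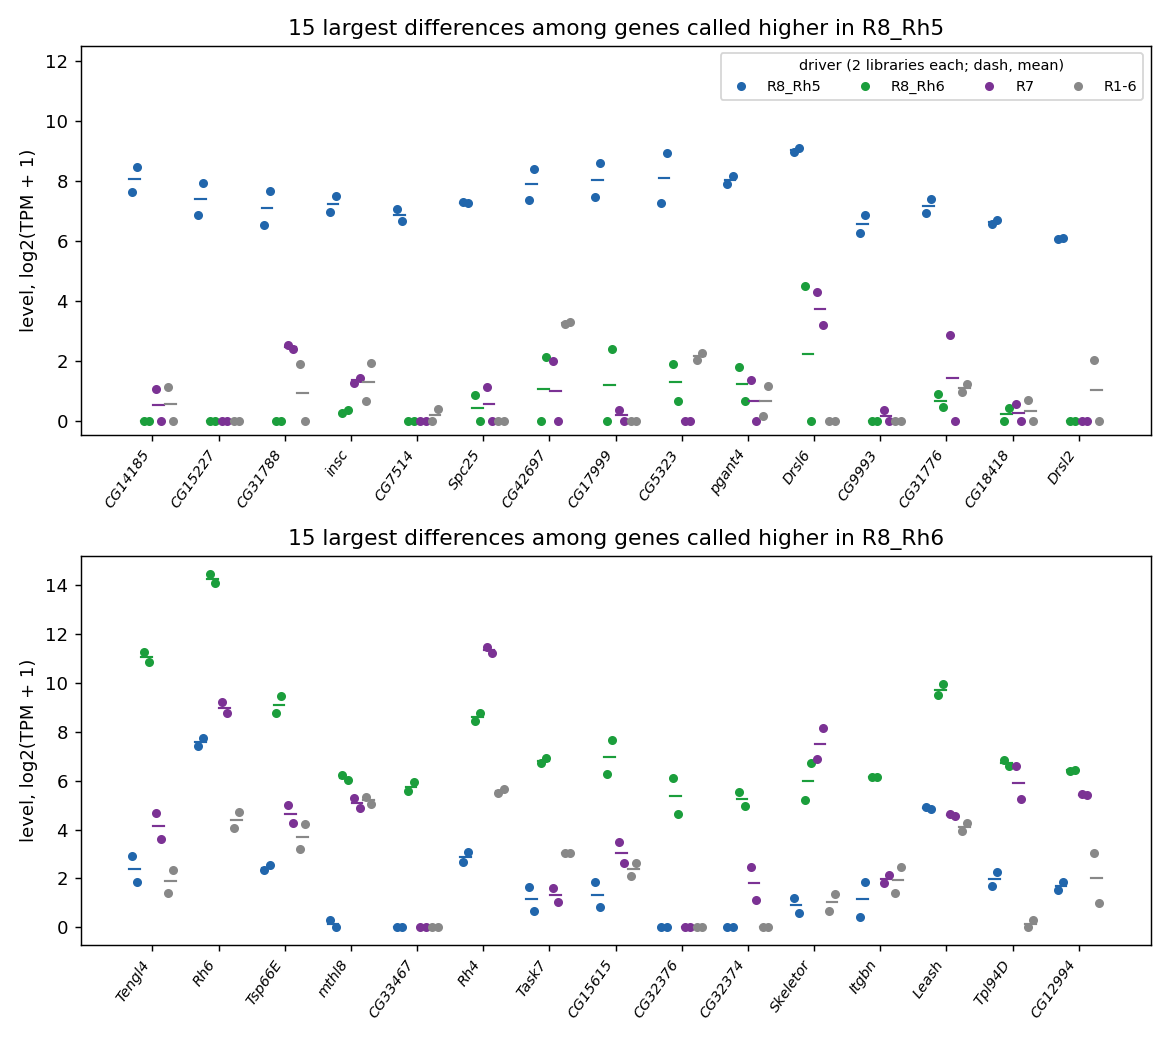
Level, as log2(TPM + 1), of the 15 genes with the largest differences in each direction, 1 point per library of R8_Rh5, R8_Rh6, R7 and R1-6 and a dash for the mean. In each gene the 2 libraries of the higher subtype lie apart from the 2 of the lower, and Rh4 and Skeletor are highest in R7.

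Phototransduction turns a change of rhodopsin into an opening of TRP channels through a G protein and phospholipase C. Of 41 genes listed for it, 37 were tested, and 6 were higher in R8_Rh5 (against 2.02% of all genes), 1 was higher in R8_Rh6 (against 2.03% of all genes) and 30 did not pass, with a median difference of 0.06 against -0.08 over all genes. The differences were small. Ggamma30A, the eye G protein gamma subunit, was at 7798 and 8451 TPM in R8_Rh5 and at 5617 and 5424 TPM in R8_Rh6 (0.56, SE 0.09, adjusted p = 0.012). ninaC, the myosin III of the rhabdomere, was at 3896 and 3992 TPM against 2741 and 2543 TPM (0.58, SE 0.10, adjusted p = 0.013). The scaffold gene inaD was at 406 and 491 TPM against 264 and 269.7 TPM (0.74, SE 0.14, adjusted p = 0.020). The lipase gene inaE (0.63), inaF-C (0.82) and inaF-D (1.25) were also higher in R8_Rh5, and inaF-C and inaF-D share 1 locus. Rtnl1, a reticulon of the endoplasmic reticulum, was higher in R8_Rh6 (-0.76, SE 0.17, adjusted p = 0.048). None of these 7 calls held in all fits with 1 library left out: inaD held in 1 of 4 and the rest in 0 of 4, with adjusted p-values up to 0.280. The channel genes trp (0.30, adjusted p = 0.320) and trpl (0.02, adjusted p = 0.966), the phospholipase gene norpA (0.11, adjusted p = 0.764) and the arrestin genes Arr1 (-0.35, adjusted p = 0.199) and Arr2 (-0.28, adjusted p = 0.333) did not pass.

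Of 8 genes tested for retinoid and pigment metabolism, 1 was higher in R8_Rh5, 1 was higher in R8_Rh6 and 6 did not pass, with a median difference of -0.02. ninaB, the oxygenase that makes retinal from carotenoids, was at 139 and 136 TPM in R8_Rh5 and at 5.73 and 16.5 TPM in R8_Rh6. The difference was 3.67 (SE 0.47, adjusted p = 0.0031), R1-6 held 81.2 and 77.0 TPM and R7 18.8 and 10.6 TPM, and Adgf-D and f-cup overlap the gene. pinta, a retinoid-binding protein needed for making visual pigment, went the other way, with 206 and 266 TPM in R8_Rh5 and 895 and 881 TPM in R8_Rh6 (-1.92, SE 0.26, adjusted p = 0.0037). It was at 131 and 204 TPM in R7 and listed at 0 in both R1-6 libraries, and it missed the threshold in 3 of the 4 fits with a library left out (adjusted p up to 0.059).

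Of 13 transmitter genes tested, 0 were higher in R8_Rh5, 1 was higher in R8_Rh6 and 12 did not pass. R8 releases histamine, and the acetylcholine genes ChAT and VAChT were read beside the histamine genes. ChAT, the synthesis enzyme of acetylcholine, was at 141 and 128 TPM in R8_Rh5 and at 210.1 and 169.8 TPM in R8_Rh6 (-0.49, SE 0.23, adjusted p = 0.395). VAChT, the vesicular transporter, was at 348 and 341 TPM against 462 and 473 TPM (-0.44, SE 0.18, adjusted p = 0.316). Both genes start at the same position (arm 3R, 18705501), so their reads overlap. Both were higher in R8 than in R7 (1.47 and 1.83 on the log2 scale, adjusted p = 0.0019 and 0.0002). VAChT ran from 255 to 1772 TPM in the control captures, a range that includes the R8 libraries. The control captures held 1.76 to 55.02 TPM of ChAT, under every R8 library. The choline transporter gene CG7708 was at 236 and 197 TPM in R8_Rh5, at 311 and 302 TPM in R8_Rh6 and at 50.3 and 53.8 TPM in R7. The histamine recycling genes t and CarT ran from 1062 to 1168 and from 1067 to 1219 TPM over the 4 R8 libraries, with differences of 0.04 (adjusted p = 0.940) and -0.05 (adjusted p = 0.919). CG15553, listed among the transporters, was at 28.8 and 38.7 TPM in R8_Rh5 and at 98.7 and 66.2 TPM in R8_Rh6 (-1.25, SE 0.26, adjusted p = 0.034), a call that was lost in 3 of 4 fits with 1 library left out (up to 0.211).

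Among receptors, the clearest was Lgr1 (FBgn0016650, arm 3R, 17725777 to 17733207), a G protein-coupled receptor for a glycoprotein hormone. It was at 397 and 401 TPM in R8_Rh5 and at 9.81 and 10.1 TPM in R8_Rh6. The replicates lay close together, and the difference was 5.19 (SE 0.20, adjusted p = 2.7e-06). R7 had 780.5 and 593 TPM and R1-6 152 and 200.4 TPM, so R8_Rh6 was the only low group of the 4, and the median of the drivers for other cells was 0.850 TPM. It was the 1 gene of 11 amine and peptide receptors tested that passed. Of 9 histamine and acetylcholine receptors tested, nAChRalpha6 passed, with 29.8 and 34.5 TPM in R8_Rh5 and 107 and 130.1 TPM in R8_Rh6 (-1.85, SE 0.21, adjusted p = 0.0016), against 655 and 487 TPM in R7. Of 5 GABA and glutamate receptors tested, 0 passed. Among 7 neuropeptide genes tested, Capa (781 and 1114 TPM against 544 and 353 TPM) and Nplp4 (132 and 88.2 TPM against 5.31 and 9.89 TPM) were higher in R8_Rh5, at adjusted p-values of 0.036 and 0.035. Capa lost its call in 3 of 4 fits with 1 library left out and Nplp4 in 4 of 4 (up to 0.215 and 0.230).

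Of 41 genes tested for axon targeting and adhesion, 5 were higher in R8_Rh6 (against 2.03% of all genes), 1 was higher in R8_Rh5 (against 2.02% of all genes) and 35 did not pass, with a median difference of -0.06 against -0.08 over all genes. Klingon (klg), a homophilic adhesion protein of the immunoglobulin family, was at 69.4 and 94.0 TPM in R8_Rh5 and at 1448 and 1375 TPM in R8_Rh6, a difference of -4.11 (SE 0.21, adjusted p = 2.7e-05). R7 was between the subtypes with 561 and 504 TPM, and CG6660 lies inside klg. CG42313, known as side-II and a receptor of the Sidestep family, was at 16.1 and 13.5 TPM in R8_Rh5 and at 263 and 237 TPM in R8_Rh6 (-3.99, SE 0.41, adjusted p = 0.00088). beat-IIb, of the Beaten path family that binds Sidestep proteins, was at 43.6 and 55.5 TPM against 203 and 209.9 TPM (-2.05, SE 0.27, adjusted p = 0.0033). All 3 of these calls held in every fit with 1 library left out. Tartan (trn, -3.29), a leucine-rich repeat protein, and the cadherin Flamingo (stan, -2.41) passed with all libraries and were lost in all 4 such fits (adjusted p up to 0.149 and 0.159). CG34353, an immunoglobulin-domain protein, was the 1 gene higher in R8_Rh5, with 100.4 and 105 TPM against 53.9 and 39.6 TPM (1.13, SE 0.24, adjusted p = 0.034), and it too was lost in all 4 fits (up to 0.184). Of 10 Dpr and DIP genes tested, a family of interacting cell surface proteins of the medulla, 0 passed, with a median difference of -0.42.

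Of 28 photoreceptor transcription factors tested, 27 did not pass. The exception was homothorax (hth), the homeodomain factor of the dorsal rim, at 41.0 and 55.3 TPM in R8_Rh5 and at 128 and 152 TPM in R8_Rh6 (-1.53, SE 0.23, adjusted p = 0.0063). R7 had 1044 and 1477 TPM, and the call was lost without R8_Rh5 replicate 1 or without R8_Rh6 replicate 2 (up to 0.067). Spalt major (salm), which R7 and R8 share, was at 799 and 720.1 TPM in R8_Rh5 and at 519 and 734 TPM in R8_Rh6 (0.30, adjusted p = 0.704). Outside the lists, some called genes encode transcription factors or their partners, and they were chosen after their values were seen. The homeodomain gene Hmx was at 510.4 and 393 TPM in R8_Rh5 and at 20.8 and 15.3 TPM in R8_Rh6 (4.57, SE 0.23, adjusted p = 2.4e-05), and R8_Rh5 ranked first of 96 drivers. R7 had 172 and 144 TPM of it. The bHLH gene Oli (83.1 and 96.7 TPM against 8.73 and 11.6 TPM) and simj, a subunit of a chromatin remodelling complex (833 and 879 TPM against 107 and 139.6 TPM), were also higher in R8_Rh5. On the R8_Rh6 side stood caup of the Iroquois complex (186 and 241 TPM against 76.0 and 84.1 TPM) and the zinc finger pair elB (278 and 374 TPM against 140.5 and 114 TPM) and noc (143 and 121 TPM against 51.2 and 28.2 TPM).

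Ion channel genes of excitability mostly did not pass, with 19 of 22 tested under the threshold. Besides Task7, the potassium channel gene Sh was at 9316 and 9131 TPM in R8_Rh5 and at 4711 and 6203 TPM in R8_Rh6 (0.77, SE 0.16, adjusted p = 0.036). The T-type calcium channel gene Ca-alpha1T was at 3757 and 3784 TPM against 2723 and 2863 TPM (0.43, SE 0.10, adjusted p = 0.049). Sh kept its call in 1 of 4 fits with a library left out and Ca-alpha1T in 0 of 4 (adjusted p up to 0.232 and 0.238). Of 11 clock genes tested, vri, a repressor in the circadian loop, passed, with 983 and 926 TPM in R8_Rh5 and 1492 and 1544 TPM in R8_Rh6 (-0.67, SE 0.10, adjusted p = 0.0085, up to 0.087 with 1 library left out). per and tim, the core clock genes, had differences of -0.24 (adjusted p = 0.611) and 0.07 (adjusted p = 0.853). Of 22 synaptic vesicle and active zone genes tested, 0 passed. The syntrophin genes Syn1 and Syn2, chosen after their values were seen, differed in opposite directions: Syn1 was at 696 and 617 TPM in R8_Rh5 against 384 and 391 TPM in R8_Rh6, and Syn2 at 153 and 179.7 TPM against 402 and 365 TPM.

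**Figure D4:**
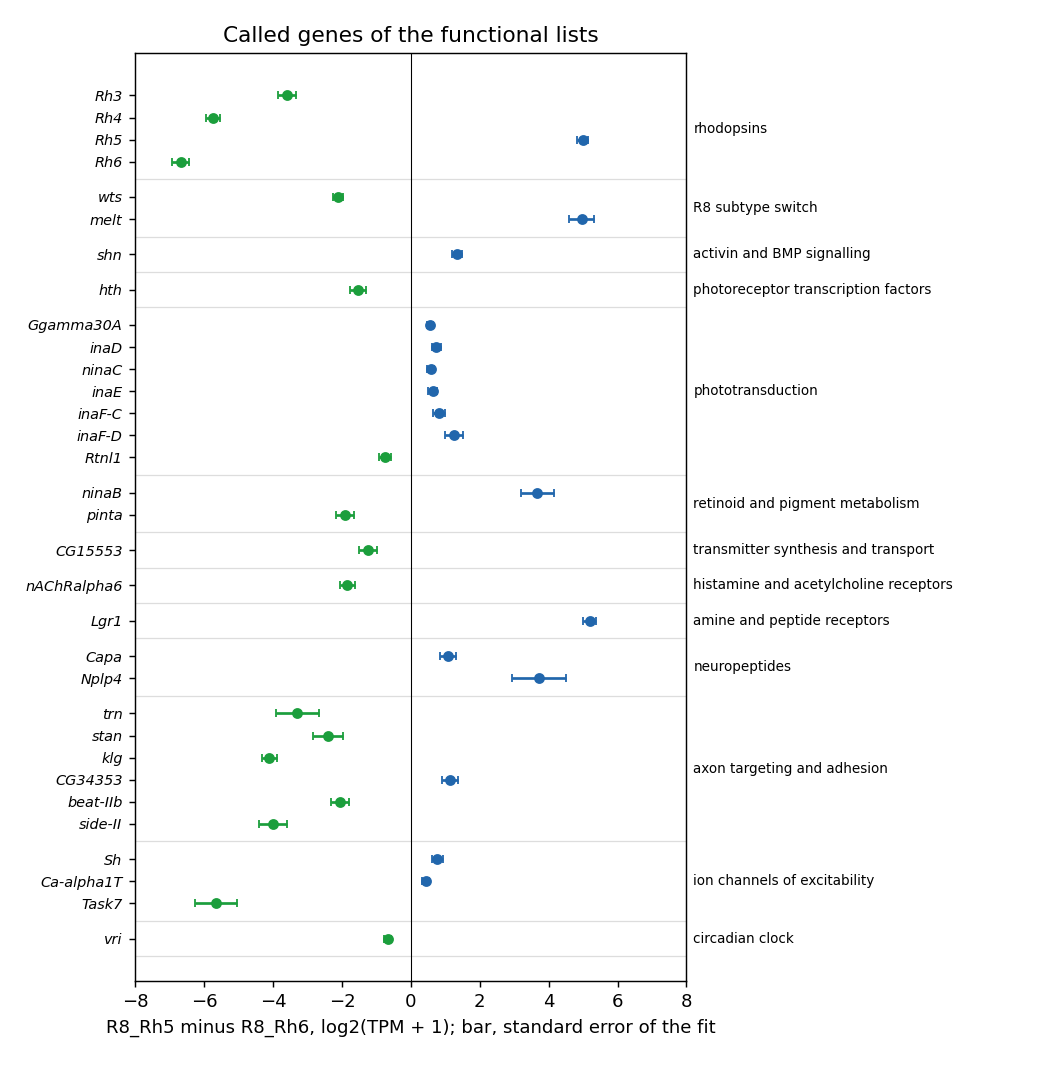
Log2 difference, R8_Rh5 minus R8_Rh6, with its SE as bars, of the called genes of the gene lists, grouped by list. Lgr1, Rh5, melt and Nplp4 lie farthest to the R8_Rh5 side, Rh6, Rh4, Task7 and klg farthest to the R8_Rh6 side, and the phototransduction genes lie within 1.25 of 0.

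The same fit compared the mean of both R8 subtypes with R7. Here 911 genes differed (15.2%), 593 higher in R8 (9.88%) and 318 lower (5.3%). The median over all genes was shifted by 0.20 towards R8, and after quantile normalization, where the shift was 0.03, 378 genes were higher and 367 lower, so the excess of higher calls depended on the scaling. With 1 library left out the higher calls fell to 398 (without R8_Rh5 replicate 1), 380 (without R8_Rh5 replicate 2), 384 (without R8_Rh6 replicate 1) and 395 (without R8_Rh6 replicate 2), and the lower calls to 210, 244, 245 and 220. Phototransduction genes had 15 higher and 5 lower of 37 tested, among them Arr1 (1.02, adjusted p = 0.00052) and Arr2 (1.30, adjusted p = 0.00015) higher in R8. Excitability channels had 3 higher and 10 lower of 22. Histamine and acetylcholine receptor genes had 0 higher and 4 lower of 9, with nAChRalpha6 at -3.17. For the genes that separate the R8 subtypes, the R7 level had no single position. melt and wts lay between the subtypes in R7, and neither passed for the R8 mean against R7 (-0.89 and -0.37, adjusted p = 0.093 and 0.099). That contrast averages over the subtypes, so a gene with R7 between them comes out small, and it does not show R7 to equal either subtype. Lgr1 was lower in R8 than in R7 (-3.36, SE 0.17, adjusted p = 1.4e-05), and Leash was higher (2.71, SE 0.23, adjusted p = 0.0002). All 4 R8 libraries enter both comparisons.

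R7 was placed against each called gene by its own 2 libraries. Of the 121 genes higher in R8_Rh5, both R7 libraries were above both R8_Rh6 libraries for 65, and at or above the lower R8_Rh5 library for 27. Of the 122 genes higher in R8_Rh6, the counts were 86 and 21. Among the first were Lgr1, Oli and Sytalpha, a synaptotagmin at 177 and 187 TPM in R8_Rh5, 18.2 and 14.5 TPM in R8_Rh6 and 1016 and 899 TPM in R7. Among the second were Rh3, Rh4, hth, nAChRalpha6 and Skeletor. The R7 markers Rh3 and Rh4 were higher in R8_Rh6 than in R8_Rh5, as given above, and the part of R7 nuclei in the second set was not tested. The called genes were picked for a low level in the other R8 subtype, which favours an R7 level above it. No share of these counts was taken over all tested genes.

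The authors' model gives each gene a probability of being on in each of 96 drivers, and a gene was taken as on at 0.8 or more and off at 0.2 or less. By these calls, 58 of the 121 genes were on in R8_Rh5 and off in R8_Rh6, 48 were on in both and 7 off in both. Of the 122 genes, 50 were off in R8_Rh5 and on in R8_Rh6, 43 were on in both and 19 off in both. No gene had the state opposite to its direction, though the states come from the same libraries and are not a separate measurement. melt was on in R8_Rh5 and off in R8_Rh6, wts was off in R8_Rh5 and on in R8_Rh6, and Rh5 itself was called on in both and in R7. Of the 58 genes, 39 were off in both R7 and R1-6, 11 were on in R7 and 8 on in R1-6. Of the 50 genes, 24 were off in both, 23 were on in R7 and 8 on in R1-6. R8_Rh5 was the highest of the 96 drivers for 47 of the 121 genes, and R8_Rh6 for 35 of the 122. The genes were called for a high level in that driver, which favours a high rank. The share over all tested genes was not taken.

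Called genes often lay beside each other on the chromosomes, a pattern noticed after the values were seen and given as counts. With genes of the same direction joined where at most 20000 bp apart, 71 of the 120 positioned genes higher in R8_Rh5 lay in runs of at least 2 (59.2%), and 52 of the 122 higher in R8_Rh6 (42.6%). No reference share of genes in such runs was taken over all tested genes. Of 5045 pairs of neighbouring tested genes, 304 held a called gene, 70 had both called in the same direction and 3 in opposite directions. On the R8_Rh5 and R8_Rh6 sides, 23 and 17 called genes overlap another called gene, where reads cannot be fully separated. Runs of 3 or more numbered 10 with 51 genes on the R8_Rh5 side and 9 with 30 genes on the R8_Rh6 side.

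The longest run by genes, on arm 3L from 3299336 to 3368133, held 11 called genes of 14 tested, from CG14968 to kst, with Drsl2, Drsl4, Drsl5 and Drsl6 among them. Its summed level was 1561 and 1705 TPM in R8_Rh5, 379.5 and 298 TPM in R8_Rh6 and 589 and 535 TPM in R7. The driver T1_d1 had the highest sum for this run, at 4216 TPM, and the median of drivers for other cells was 792 TPM. Most of both came from PHGPx, at 4012 TPM in T1_d1 and at a median of 590 TPM in drivers for other cells. R8_Rh5 ranked first of the 96 drivers for Drsl2, Drsl4, Drsl5, Drsl6, PIG-C and CG14969, and lower for the other called genes of the run. The next, on arm 2R from 20821262 to 20903414, held 9 called genes of 9 tested (insc, sktl, CG17999, CG9993, CG15227, IM4, Ipk1, Cib2 and otp), on both strands. It summed to 883 and 1607 TPM in R8_Rh5 and to 18.1 and 18.9 TPM in R8_Rh6, with 17.8 and 25.4 TPM in R7 and 552 and 641 TPM in R1-6. R8_Rh5 was the first of the 96 drivers for this sum. In R1-6, nearly all of it came from Ipk1 (341 and 439 TPM) and Cib2 (197 and 190 TPM), and the other genes of the run were at or under 8.24 TPM there. A run of 6 genes on arm 2L from 3453697 to 3475338 held msl-2 and pgant4 and summed to 1301 and 1481 TPM against 167 and 196 TPM. msl-2, a subunit of the male dosage compensation complex, was at 293 and 273 TPM in R8_Rh5 and at 82.0 and 90.2 TPM in R8_Rh6 (1.71, SE 0.26, adjusted p = 0.0066), and roX1, the RNA of that complex, overlapped between subtypes at 3257 and 2784 TPM against 2465 and 3551 TPM. A run of 6 genes on arm 3L from 4665927 to 4796253, with CG7514 and CG18418, summed to 481 and 492 TPM against 1.83 and 7.70 TPM.

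On the R8_Rh6 side, Leash with Adk3 and CG6621 summed to 1985 and 2484 TPM in R8_Rh6, 139.8 and 124 TPM in R8_Rh5 and 145 and 114.98 TPM in R7, and R8_Rh6 was the highest of the 96 drivers. Task7 lay between betaTub85D and alpha-Man-IIa on arm 3R (9408383 to 9417264), and the 3 genes summed to 262 and 327 TPM in R8_Rh6 and to 12.2 and 14.9 TPM in R8_Rh5. klg lay with CG6660 and Tpl94D on arm 3R (22899284 to 22967842), at 1739 and 1594 TPM in R8_Rh6, 78.5 and 105 TPM in R8_Rh5 and 753 and 593 TPM in R7. The driver Mi15_d1 had the highest sum for this run, at 3295 TPM. A run of 4 genes on arm 2L (17501401 to 17532234, Dhc36C to CG15145) was higher in R8_Rh5 (224 and 182 TPM) than in R8_Rh6 (14.4 and 12.54 TPM) and highest in R7 (1161 and 939 TPM). By arm, the called genes were 25 and 37 of 1065 tested on 2L, 23 and 15 of 1193 on 2R, 36 and 23 of 1152 on 3L, 21 and 35 of 1414 on 3R and 15 and 11 of 1051 on X, for R8_Rh5 and R8_Rh6. The GAL4 insertions lie on chromosomes 2 and 3, at positions not given in the sources used here.

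**Figure D5:**
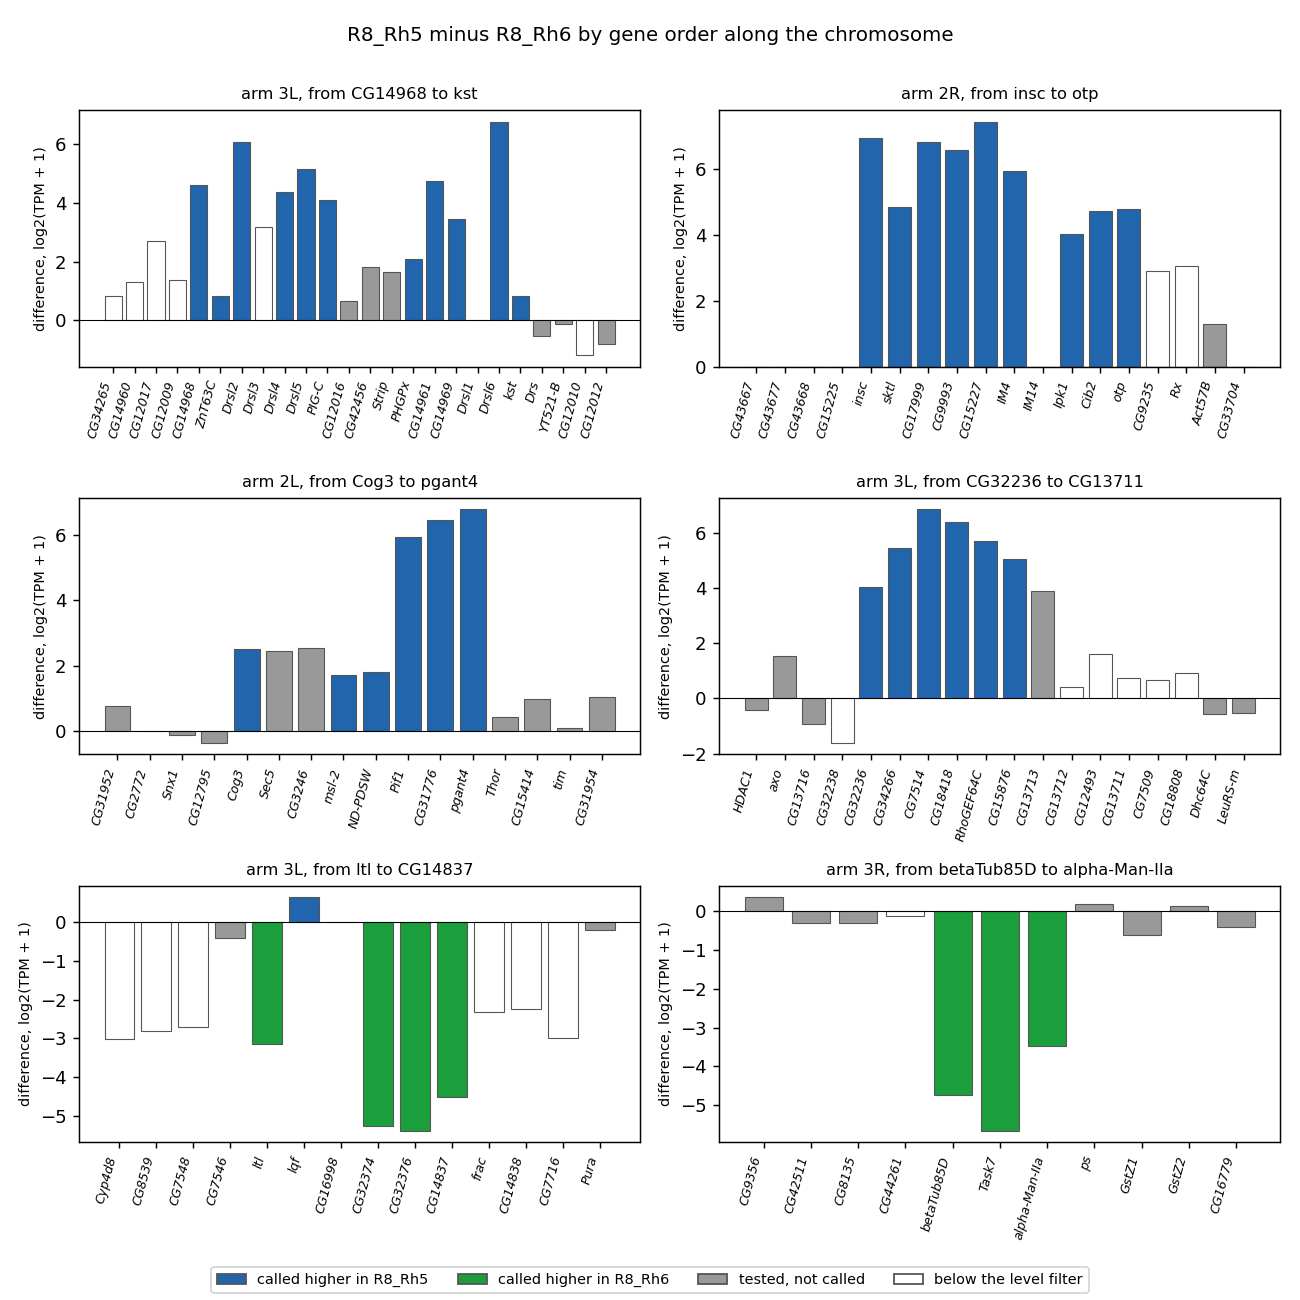
Log2 difference, R8_Rh5 minus R8_Rh6, of tested coding genes in chromosome order around 6 runs of called genes, 1 bar per gene, with called genes in colour and unfilled bars for genes below the level filter. Called genes of 1 direction stand side by side or with few genes between them, and lqf, beside ltl, is called in the opposite direction.

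At the level of annotated transcripts, 3 named genes are given as a description, chosen after their values were seen. For CG34353, 1 of 3 transcripts (FBtr0339321) was at 25.8 and 30.3 TPM in R8_Rh5 and listed at 0 in both R8_Rh6 libraries. For nAChRalpha6, transcript FBtr0331284 held 17.4% and 17.8% of the gene in R8_Rh5, at only 4.23 and 4.89 TPM, and 45.2% and 62.5% in R8_Rh6. Shares at these levels varied between replicates: transcript FBtr0079915 of the same gene held 37.3% and 12.8% in R8_Rh5. For Tpl94D, transcript FBtr0084339 held 4.89% and 2.91% in R8_Rh5, where the gene was at 2.25 and 3.87 TPM, and 51.9% and 54.3% in R8_Rh6.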

How the data were processed

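Nuclear RNA was sequenced from captured nuclei. The authors trimmed the reads with seqtk and estimated abundance with kallisto 0.43.1 (per the submitters' processing notes, which name dm6) on Ensembl transcripts, spike-ins and constructs. The deposited TPM values of coding genes were rescaled by the authors after spike-ins, tag and ribosomal RNA were removed, and TPM depends on the other RNA in a library. The deposited fraction values are the probabilities of the on state from the authors' mixture model. Reads are not stated to be assigned by strand.

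R8_Rh5 was compared with R8_Rh6, and R8 with R7, in R 4.3.3 with limma 3.58.1 (lmFit, eBayes with trend, two-sided, Benjamini-Hochberg at 0.05) on log2(TPM + 1) of 6003 of 13931 coding genes, those of at least 10 TPM in at least 2 R8 libraries. The spread came from 8 TAPIN photoreceptor libraries (4 residual degrees of freedom). Tables used Python 3.11.15 with pandas 2.3.3. The fit was tested on simulated data with 200 changed genes, and most of these did not pass the threshold. Positions are from a later Ensembl annotation of the same assembly.

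Named genes were Rh5, Rh6, sens, wts, melt, ChAT, VAChT and Hdc, the 15 largest differences without overlap in each direction, and every list gene that passed. Genes outside this rule were chosen after their values were seen. The comparison, members and lists were chosen with earlier results of these data known. Alternatives were other pseudocounts (0.1 and 5 TPM), filters (none and 50 TPM), quantile normalization, other libraries for the spread, the table of all genes, a replicate block and each R8 library left out. A fit to R8 and R7 libraries alone was added after the data were seen. Sub-optimal R7 libraries (R7_Rh3) entered no test.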

Additional observations from a re-analysis of the deposited data

How the results depend on the processing

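The genes higher in R8_Rh5 numbered 121, and 76 with a pseudocount of 0.1 TPM, 80 with the replicate block and 56 to 77 with 1 R8 library left out. The genes higher in R8_Rh6 numbered 122, and 77 with the replicate block and 53 to 76 with 1 R8 library left out. In the other alternatives for this comparison the counts stayed within 1.5 times of these, and no called gene changed sign. Against R7, 593 genes were higher in R8, and 378 after quantile normalization, 332 with the replicate block, 369 with the spread from the R8 and R7 libraries only and 380 to 398 with 1 R8 library left out. Of the 318 lower in R8 there were 481 with no filter on low values, where 11285 genes were tested and 499 were higher, and 210 to 245 with 1 R8 library left out. The cause was not tested, beyond the fewer libraries or different genes in a fit. The numbers of the replicates did not pair the samples: deviations from group means correlated at -0.05, -0.01 and 0.03 between groups, and the block is given for that reason only here. Of 59 named genes that passed, 37 were called in all 4 fits with 1 library left out, 12 in none, and 32 in every alternative. Hdc, which did not pass (0.07), ranged from -0.0008238 without R8_Rh5 replicate 1 to 0.1458 without R8_Rh5 replicate 2, the only named gene to change sign. Each group had 2 libraries and TPM carries no depth, so low values have no counting error attached and a gene under the threshold is not shown to be equal.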

Other observations

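Non-coding genes were not tested and are given as values from the table of all genes, chosen after they were seen. Of 142 with at least 100 TPM in at least 2 R8 libraries, 14 differed by at least 3 on the log2 scale of group means without overlap, 7 in each direction, and 12 of the 14 lay within 20000 bp of a called coding gene of the same direction. The share near a called gene was not taken for the rest of the 142, so the 12 of 14 has no reference. CR45577, 61 bp past the end of Leash, was at 6.27 and 8.43 TPM in R8_Rh5 and at 2554 and 3991 TPM in R8_Rh6, with 4.94 and 18.1 TPM in R7. CR45561 was at 22.7 and 16.5 TPM in R8_Rh5 and at 1980.3 and 2898 TPM in R8_Rh6, 2103 bp from CG34114. CR45372, 27 bp from pgant4, was at 632 and 817 TPM in R8_Rh5 and at 5.23 and 0.59 TPM in R8_Rh6. CR44667, 1467 bp from insc, was at 181 and 373 TPM in R8_Rh5 and at 3.57 and 0 TPM in R8_Rh6. CR43406, CR43408 and CR44901, which overlap CG42750, were at 126 to 319 TPM in R8_Rh5 and at 0 to 1.17 TPM in R8_Rh6. CR44412, 2078 bp from Sytalpha, was at 368 and 451 TPM in R8_Rh5 and at 9.79 and 6.74 TPM in R8_Rh6, and at 816 and 1081 TPM in R7, as Sytalpha was also highest in R7.

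In the 2 libraries of the R7_Rh3 driver, which the authors call sub-optimal, Lgr1 was at 574 and 831 TPM, Hmx at 105 and 139 TPM and melt at 63.8 and 95.3 TPM, while sens was at 0.26 and 0.99 TPM. Rh3 was at 643 and 2538 TPM and Rh4 at 836 and 1740 TPM in them. Control captures reached 3886 TPM of Rh3 and 2213 TPM of Rh4, and the part of capture background in these values was not tested.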
